A study of Mus musculus with 15 samples.

Results

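The 8 genes described here are the TGF-beta ligand genes Tgfb1, Tgfb2 and Tgfb3, the activin subunit gene Inhba, the TGF-beta-induced matrix gene Tgfbi and the YAP target genes Ccn1, Ccn2 and Ankrd1. They were chosen by name, and all 8 were present among the 12763 genes of the deposited count table of mouse thymic fibroblasts. Of the 8, 7 had enough counts to enter the test that ran over 10207 genes, and Ankrd1 did not.

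TGF-beta is secreted as an inactive complex with its own propeptide, which binds latent TGF-beta binding proteins in the matrix and is opened by integrins, thrombospondin or proteases. Freed ligand brings together type I and type II receptors, which phosphorylate SMAD proteins that enter the nucleus and switch on genes for matrix proteins and for their own feedback inhibitors. YAP and TAZ are cofactors of TEAD transcription factors that Hippo kinases hold in the cytoplasm, and in fibroblasts they respond to stiff matrix and stretch through genes such as Ccn1 and Ccn2.

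The fibroblasts came from thymi of wild-type male mice either 1 day or 3 days after 425 rad of irradiation, a sublethal dose, or from untreated mice, with 5 libraries in each of the 3 groups. The series as a whole asks how fibroblasts and tuft cells take part in thymus regeneration. The labels name no transgene and no other agent, and they do not say whether replicates of a group came from separate mice, so the p-values speak only to the spread among the libraries at hand, which may be technical. RNA was counted by MARS-seq, which tags the 3' end of each polyadenylated transcript with a unique molecular identifier (UMI), so counts do not grow with transcript length.

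The sort described in the labels took CD45-EpCAM+CD34+CD31-PDGFRalpha+ cells. Pdgfra, the sorted receptor, averaged 111 CPM at day 1, 193 at day 3 and 310 in untreated libraries. For single genes, CPM are UMI counts scaled to 1000000 per library, with library sizes adjusted by TMM. Epcam had 10, 10 and 11 UMIs over all libraries of those groups, near 0 despite the EpCAM+ label. The summed level of 10 fibroblast markers, scaled by total counts, ran from 11393 to 25976 CPM at day 1, from 40253 to 46656 at day 3 and from 52226 to 60916 in untreated libraries. Library totals ran from 740169 to 3750214 UMIs, the lowest being day 1 replicate 1. In bulk sorted cells, fewer cells of a type and less RNA per cell cannot be told apart.

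RefSeq promoters (GRCm38.p6) of 6 of the 8 genes were at hand. Those of Tgfb3 and Ccn2 were not, so no motif was sought in them. Of the 6, 3 are shown to set a ligand gene that was higher at day 1 beside one that was lower and beside the most abundant YAP target of the set. Each run covers 250 bases up to the base before the annotated start, on the gene's own strand, with capitals marking CAGAC or GTCTG (the core bound by SMAD proteins) in the ligand genes and CATTCC or GGAATG (the core bound by TEAD proteins) in all 3.
Tgfb1, chr7:25686752-25687001, plus strand: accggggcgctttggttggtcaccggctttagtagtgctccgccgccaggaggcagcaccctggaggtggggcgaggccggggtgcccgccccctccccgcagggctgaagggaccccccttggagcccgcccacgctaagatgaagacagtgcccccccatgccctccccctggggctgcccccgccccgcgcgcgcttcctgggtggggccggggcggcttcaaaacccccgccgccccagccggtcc
Tgfb2, chr1:186705990-186706239, minus strand: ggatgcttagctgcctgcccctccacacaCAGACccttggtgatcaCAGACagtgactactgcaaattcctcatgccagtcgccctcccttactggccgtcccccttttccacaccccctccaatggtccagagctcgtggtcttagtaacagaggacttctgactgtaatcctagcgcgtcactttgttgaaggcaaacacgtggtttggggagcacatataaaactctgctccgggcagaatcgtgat
Ccn1, chr3:145649986-145650235, minus strand: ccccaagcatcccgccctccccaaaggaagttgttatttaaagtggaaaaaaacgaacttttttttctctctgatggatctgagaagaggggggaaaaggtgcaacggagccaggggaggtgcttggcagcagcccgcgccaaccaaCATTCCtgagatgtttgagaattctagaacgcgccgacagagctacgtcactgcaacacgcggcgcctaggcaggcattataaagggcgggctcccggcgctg
Tgfb1 holds neither core and has a GC content of 75.2%, against a median of 52.4% over all promoters of the same length. Tgfb2 holds CAGAC at 221 to 217 and at 204 to 200 bases before its start. Ccn1 holds CATTCC at 103 to 98 bases before its start. The SMAD core was also found 2 times each in the windows of Tgfbi and Ankrd1, and 0 times in those of Inhba and Ccn1. Of 32841 promoter windows, 42.2% hold the SMAD core and 12.6% the TEAD core on either strand.
Ankrd1 holds the TEAD core on the reverse strand at 210 to 205 and at 123 to 118 bases before its start, and the 26 bases around each match are shown because no other of the 6 genes has a pair of them. Both lie before the RefSeq start and inside the span that GENCODE gives the gene. Capitals mark the TEAD core alone, and a SMAD core, GTCTG at 127 to 123 bases before the start, overlaps the proximal match.
Ankrd1 distal match, chr19:36120039-36120064, minus strand: cactgccaaaGGAATGaccctctcac
Ankrd1 proximal match, chr19:36119952-36119977, minus strand: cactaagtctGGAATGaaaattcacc
No AP-1 core (TGANTCA, in 6.75% of all windows) and no CArG box (in 1.47%) was found in the windows of the 6 genes. The TATA core (TATAAA or TTTATA, in 12.4%) was found 31 to 26 bases before the start of Tgfb2, 25 to 20 bases before that of Ccn1 and 91 to 86 bases before that of Inhba. A match of letters is a description and not a binding site, and binding was not measured here.

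The balance of the TGF-beta ligand genes differed between irradiated and untreated fibroblasts. At day 1 Tgfb1 rose 2.46-fold over untreated libraries while Tgfb2 fell 3.04-fold and Tgfb3 also fell. At day 3 Tgfb1 was still higher than in untreated libraries, whereas Tgfb2 and Tgfb3 had no call against them. The YAP targets parted, with Ccn1 higher and Ccn2 lower at day 1, and both lower at day 3. Of the 7 genes tested at day 1, 2 were higher and 4 lower at an edgeR adjusted p under 0.05, against 23.1% of all genes higher and 23.1% lower. At day 3, 1 was higher and 3 lower than in untreated libraries, against 9.2% and 9.25% of all genes. Inhba, among those 3, passed the low-count filter only with day 1 in the fit, and with day 3 and untreated libraries alone 1 was higher and 2 lower. Between day 3 and day 1, 3 were higher at day 3 and 3 lower, against 16.1% and 16.6% of all genes. Those 3 lower genes also include Inhba, which the filter kept through day 1, where it was high. The 3 comparisons share libraries and are not independent of each other. Without day 1 replicate 1, the shallowest library, 6, 4 and 6 of the 7 genes were called in these comparisons, as with it.

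**Figure D1:**
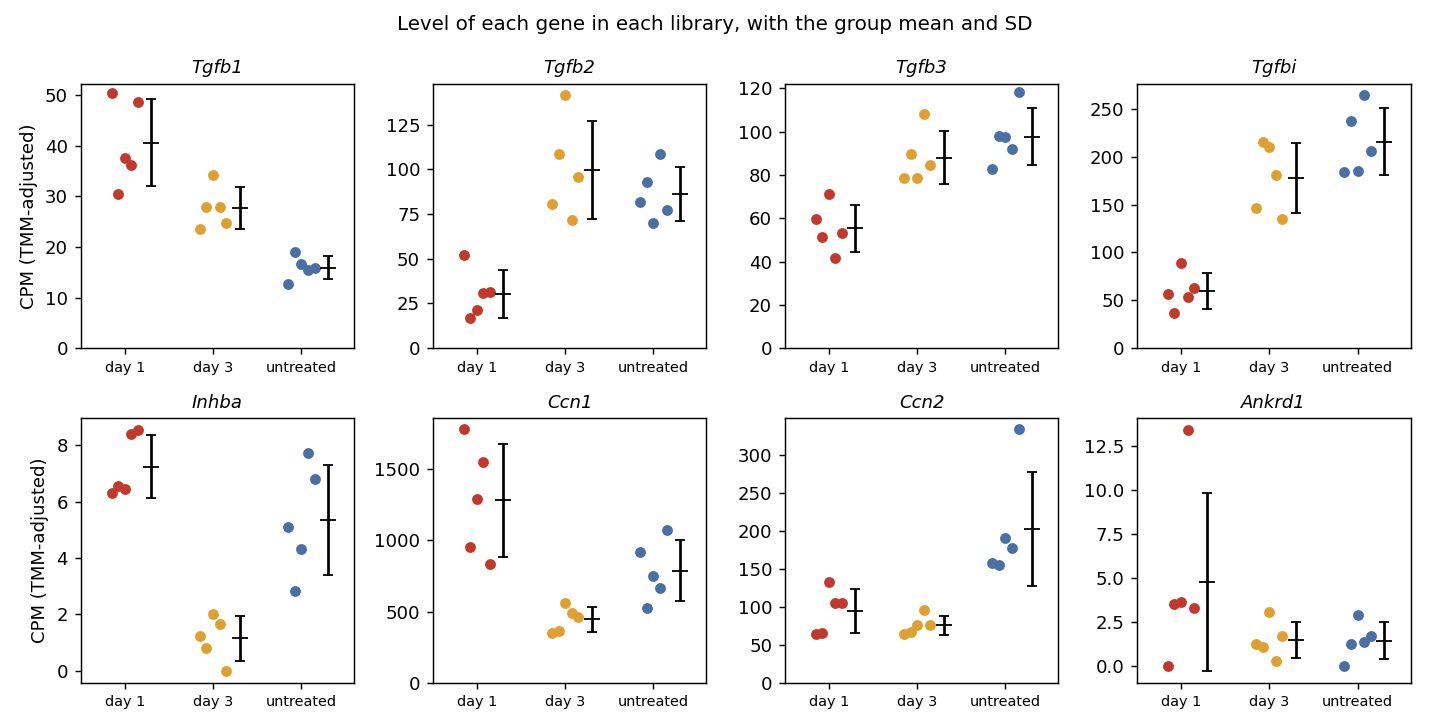
Level of each of the 8 genes in CPM (vertical axis, from 0, its own range in each panel) in the 5 libraries of day 1, day 3 and untreated fibroblasts, with points for libraries and bars for the group mean and SD. Tgfb1 is highest at day 1, Tgfb2, Tgfb3 and Tgfbi are lowest there, Inhba is lowest at day 3 and Ccn2 is highest in untreated libraries.

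Tgfb1 (chr7:25687002-25705077, plus strand, GRCm38 as are all gene positions below) encodes the TGF-beta ligand best known from immune cells, platelets and fibrosis. It stood at 50.4, 30.5, 37.5, 36.1 and 48.6 CPM in day 1 replicates 1 to 5, at 23.6, 27.8, 34.3, 27.9 and 24.7 CPM in day 3 libraries and at 12.8, 19.0, 16.5, 15.5 and 15.7 CPM in untreated libraries. Every irradiated library lay above every untreated one, and the ranges of day 1 and day 3 overlapped. Its log2 change was 1.30 ± 0.18 (SE) at day 1 and 0.77 ± 0.17 at day 3 against untreated libraries (edgeR adjusted p = 4.8e-06 and 0.0040). Day 3 was below day 1 by a log2 change of -0.53 ± 0.17 (edgeR adjusted p = 0.0179). This last call was lost when libraries were scaled by total counts (-0.38, adjusted p = 0.0817) or without day 1 replicate 5 (-0.45, adjusted p = 0.05004).

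Markers of other cell types known for Tgfb1 were measured beside it. A sum over 18 markers of macrophages and dendritic cells ran from 1089 to 1747 CPM at day 1, from 128 to 249 CPM at day 3 and from 262 to 905 CPM in untreated libraries. These sums use total counts, and with the TMM library sizes used for Tgfb1 the day 3 range, 127 to 251 CPM, overlapped with the untreated one, 234 to 848 CPM. The markers did not all move as their sum did. Its largest terms at day 1 were the MHC class II genes Cd74, H2-Ab1, H2-Aa and H2-Eb1, with means of 432, 247, 176 and 150 CPM. At day 1 the means of 17 of the 18 lay above untreated libraries, but Lyz2 averaged 33.2 against 43.4 CPM. At day 3 the means of 16 of the 18 lay below untreated libraries, but Csf1r averaged 13.5 CPM at day 3 against 7.78 CPM in untreated libraries and Cd68 24.9 against 10.5 CPM. The part of those cells in the Tgfb1 level was not tested at either time. The 4 of 5 platelet markers in the table summed to 61.3 to 112 CPM at day 1, 56.0 to 76.3 CPM at day 3 and 44.5 to 66.9 CPM in untreated libraries, by total counts. With TMM library sizes their day 1 range, 68.2 to 131 CPM, lay above the untreated one, 41.0 to 60.4 CPM. The day 3 range, 54.9 to 75.7 CPM, overlapped with both. Means of 3 of these 4 lay above untreated libraries at day 1, while Gp1bb averaged 9.98 CPM there against 15.5 CPM in untreated libraries. Ptprc, which encodes CD45, had 38, 9 and 35 UMIs over the libraries of those groups.

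Tgfb2 (chr1:186622792-186705989, minus strand) encodes a ligand that needs the co-receptor betaglycan for strong binding to its receptors. It stood at 52.0, 17.0, 21.4, 30.7 and 31.5 CPM at day 1, at 80.4, 109, 142, 71.6 and 95.7 CPM at day 3 and at 81.7, 92.9, 69.8, 108 and 77.5 CPM in untreated libraries. All day 1 libraries lay below all others, replicate 1 being the highest of them, and the ranges of day 3 and untreated libraries overlapped. The log2 change was -1.60 ± 0.24 at day 1 against untreated libraries (edgeR adjusted p = 1.6e-05), and day 3 lay 3.50-fold above day 1 (log2 change 1.81 ± 0.24, edgeR adjusted p = 6.0e-06). Day 3 against untreated libraries gave 0.20 ± 0.21 (edgeR adjusted p = 0.569), a difference smaller than the spread between libraries.

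Tgfb3 (chr12:86056745-86079041, minus strand), the ligand known from palate closure and scar-poor healing, moved the same way with a smaller size. It stood at 59.8, 51.5, 71.0, 41.6 and 53.1 CPM at day 1, at 78.5, 89.9, 78.7, 108 and 84.7 CPM at day 3 and at 82.5, 98.2, 97.5, 92.0 and 118 CPM in untreated libraries. No day 1 library reached the lowest library of the other groups. Its log2 change was -0.83 ± 0.16 at day 1 and -0.15 ± 0.15 at day 3 against untreated libraries (edgeR adjusted p = 2.2e-04 and 0.536), and 0.67 ± 0.16 between day 3 and day 1 (edgeR adjusted p = 0.00221).

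The balance among the 3 ligand genes differed between groups. Since each UMI stands for the 3' end of a transcript, the share of a ligand among Tgfb1, Tgfb2 and Tgfb3 UMIs does not need a correction for length, but it takes the 3' ends to be captured alike. Tgfb1 made up 32.1% ± 2.89 of these UMIs at day 1, 12.8% ± 0.651 at day 3 and 7.97% ± 0.965 in untreated libraries (SD, n = 5 each). The day 1 range of 28.9% to 36.5% and the day 3 range of 12.0% to 13.5% did not overlap with each other or with the untreated range of 7.15% to 9.04%. The difference was 24.1 percentage points at day 1 and 4.86 at day 3 against untreated libraries, and -19.3 between day 3 and day 1. Each of these had p = 0.00794 in a two-sided exact permutation test, the smallest that 252 assignments of 5 against 5 libraries can give, and 0.0143 after adjustment over 9 share comparisons.

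The Tgfb2 share was 23.5% ± 6.81 at day 1, 45.8% ± 7.64 at day 3 and 43.0% ± 5.70 in untreated libraries. It was lower by 19.5 points at day 1 than in untreated libraries and higher by 22.2 points at day 3 than at day 1 (exact permutation adjusted p = 0.0143 for both), and the 2.73 points between day 3 and untreated libraries did not pass (0.611). The Tgfb3 share, 44.4% ± 8.30 at day 1, 41.4% ± 7.58 at day 3 and 49.0% ± 5.38 in untreated libraries, passed in none of the comparisons (exact permutation adjusted p = 0.408 for day 1 and 0.167 for day 3 against untreated libraries, and 0.611 between them). The 3 ligands summed to 127 ± 24.6 CPM at day 1, 215 ± 27.0 at day 3 and 199.7 ± 17.9 in untreated libraries, a description with no test. The shares rest on 103 to 322 ligand UMIs per library at day 1, 505 to 839 at day 3 and 208 to 643 in untreated libraries, so day 1 replicate 1, with 103, is the least precise.

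**Figure D2:**
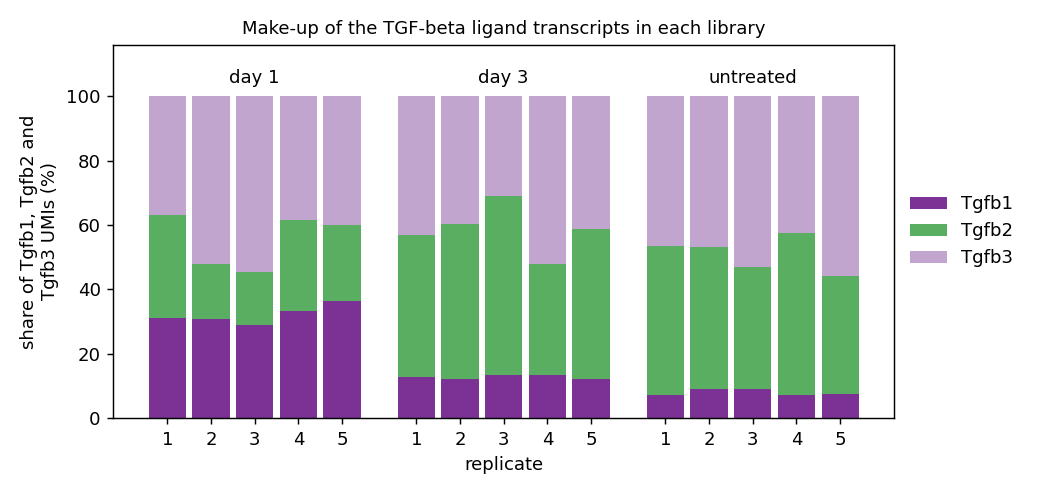
Share of Tgfb1, Tgfb2 and Tgfb3 among the UMIs of these 3 ligand genes (vertical axis, percent, stacked to the whole) in each of the 5 libraries of day 1, day 3 and untreated fibroblasts. Tgfb1 takes 28.9% to 36.5% at day 1, 12.0% to 13.5% at day 3 and 7.15% to 9.04% in untreated libraries.

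Inhba (chr13:16011851-16031621, plus strand) encodes the beta A subunit, a pair of which makes activin A, a ligand that signals through its own receptors to the same SMAD proteins as TGF-beta. It stood at 6.30, 6.54, 6.46, 8.41 and 8.53 CPM at day 1, at 1.24, 0.810, 2.02, 1.67 and 0 CPM at day 3 and at 5.10, 2.83, 4.32, 7.73 and 6.81 CPM in untreated libraries. All day 3 libraries lay below all others, while day 1 and untreated libraries overlapped. The values rest on 4 to 17 UMIs per library at day 1, 0 to 6 at day 3 and 6 to 23 in untreated libraries, and the count of 0 in day 3 replicate 5 allows up to 1.02 CPM (3 counts, counting error only). Inhba was lower at day 3, with a log2 change of -2.24 ± 0.42 against untreated libraries and -2.66 ± 0.42 against day 1 (edgeR adjusted p = 0.00101 and 4.7e-05). With day 3 and untreated libraries alone it was below the low-count filter and had no test. Since the filter kept Inhba through day 1, where it was high, its call against day 1 leans on that same group. Day 1 against untreated libraries gave 0.43 ± 0.34 (edgeR adjusted p = 0.319).

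Tgfbi (chr13:56609523-56639562, plus strand) is not a ligand but encodes a secreted matrix protein, named for its induction by TGF-beta, that binds collagens and integrins. It stood at 56.7, 37.1, 88.8, 53.4 and 62.3 CPM at day 1, at 147, 215, 210.4, 181 and 135 CPM at day 3 and at 184, 237, 186, 265 and 206 CPM in untreated libraries. The day 1 libraries all lay below the others, and day 3 overlapped with untreated libraries. It fell 3.60-fold at day 1 against untreated libraries (log2 change -1.85 ± 0.20, edgeR adjusted p = 2.3e-07), the largest change of the 7 tested genes in that comparison. Day 3 gave -0.28 ± 0.19 against untreated libraries (edgeR adjusted p = 0.326) and 1.57 ± 0.20 against day 1 (edgeR adjusted p = 3.6e-06). The summed fibroblast markers given above were, like Tgfb2, Tgfb3 and Tgfbi, lowest at day 1, as were the means of 8 of the 10 markers. Of the others, Pdgfrb averaged 351 CPM at day 1, 269 at day 3 and 179 in untreated libraries, and Col1a1 955, 852 and 1356 CPM in those groups. The part of these markers in the changes was not tested.

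Ccn1 (chr3:145646976-145649981, minus strand), formerly Cyr61, encodes a matricellular integrin ligand and is among the most used readouts of YAP. It stood at 1786, 956, 1290.3, 1550.2 and 835 CPM at day 1, at 349, 366, 564, 487 and 465 CPM at day 3 and at 920.4, 528, 751, 667 and 1073 CPM in untreated libraries. The 5 day 1 libraries all lay above the 5 day 3 libraries, and the untreated ones overlapped with both. Its log2 change was 0.70 ± 0.21 at day 1 and -0.82 ± 0.21 at day 3 against untreated libraries (edgeR adjusted p = 0.0101 and 0.0108), and -1.52 ± 0.22 between day 3 and day 1 (edgeR adjusted p = 1.5e-05). The day 1 call was lost under total count scaling (0.43, adjusted p = 0.0902). That scaling moved the median of all genes to -0.29 at day 1, to -0.13 at day 3 and to 0.15 between day 3 and day 1, against -0.02, -0.01 and 0.01 with TMM scaling.

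Ccn2 (chr10:24595442-24598683, plus strand), formerly Ctgf, encodes a matricellular protein that both TGF-beta and YAP switch on. It stood at 64.6, 65.9, 133, 105 and 105 CPM at day 1, at 63.6, 66.7, 76.2, 96.4 and 75.5 CPM at day 3 and at 157, 155, 191, 177 and 334 CPM in untreated libraries. All 10 irradiated libraries lay below all untreated ones, and untreated replicate 5 stood apart above its group. Its log2 change was -1.08 ± 0.22 at day 1 and -1.42 ± 0.22 at day 3 against untreated libraries (edgeR adjusted p = 4.7e-04 and 2.0e-04). Without untreated replicate 5 these were -0.83 and -1.17 (adjusted p = 0.00172 and 4.9e-04). Day 3 against day 1 gave -0.34 ± 0.22 (edgeR adjusted p = 0.252).

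Ccn1 and Ccn2 therefore differed in sign at day 1. Per Ccn2 UMI, the day 1 libraries held 27.7, 14.5, 9.69, 14.8 and 7.96 Ccn1 UMIs, the day 3 libraries 5.49, 5.49, 7.40, 5.06 and 6.17, and the untreated libraries 5.85, 3.42, 3.93, 3.78 and 3.21. The lowest day 1 ratio lay above the highest of the other libraries, and this ratio is a description with no test. Mesothelial markers, of the lining of organ surfaces, summed to 572 to 3897 CPM at day 1, 385 to 1919 CPM at day 3 and 153 to 611 CPM in untreated libraries, and pericyte and smooth muscle markers to 468 to 760, 266 to 477 and 326 to 552 CPM over the same groups. These sums use total counts. With the TMM library sizes used for Ccn1 and Ccn2, mesothelial markers summed to 610 to 4150 CPM at day 1 and 137 to 572 CPM in untreated libraries. Pericyte and smooth muscle markers then summed to 522 to 810 and 300 to 517 CPM, so neither day 1 range overlapped with the untreated one. The day 3 ranges on that scale, 382 to 1893 and 260 to 473 CPM, both did. At day 1 the means of 10 of the 12 pericyte and smooth muscle markers lay above untreated libraries, but Abcc9 averaged 6.68 against 45.2 CPM and Rgs5 11.4 against 15.9. At day 3 the means of 7 of the 12 lay below untreated libraries, but Kcnj8 averaged 49.3 against 32.0 CPM and Myh11 20.3 against 6.16. The part of mesothelial, pericyte and smooth muscle cells in the Ccn1 and Ccn2 levels was not tested.

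Ankrd1 (chr19:36111961-36120099, minus strand) encodes an ankyrin repeat protein of nuclei and muscle sarcomeres and is a common YAP readout. It had 0, 8, 9, 27 and 5 UMIs at day 1, 4, 4, 6, 1 and 5 UMIs at day 3 and 0, 3, 8, 4 and 4 UMIs in untreated libraries. In CPM these were 0, 3.49, 3.63, 13.4 and 3.28 at day 1, 1.24, 1.08, 3.03, 0.279 and 1.71 at day 3 and 0, 1.21, 2.88, 1.34 and 1.70 in untreated libraries. The groups overlapped through day 1 replicate 1, the shallowest library, whose 0 allows up to 4.71 CPM, more than every day 1 value except that of replicate 4. The 0 of untreated replicate 1 allows up to 2.54 CPM (3 counts in both, counting error only).

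The mean of Ankrd1 was 4.75 ± 5.04 CPM at day 1, 1.47 ± 1.01 at day 3 and 1.43 ± 1.03 in untreated libraries (SD, n = 5 each). Two-sided exact permutation tests gave differences of 3.33 CPM for day 1 and 0.0412 CPM for day 3 against untreated libraries and -3.28 CPM for day 3 against day 1, with p = 0.119, 0.905 and 0.127 (adjusted over the 3 comparisons 0.190, 0.905 and 0.190). Without day 1 replicate 1 the day 1 difference was 4.51 CPM against untreated libraries and day 3 lay lower than day 1 by a difference of -4.47 CPM, both with an exact permutation adjusted p = 0.0119. Since that library alone made the groups overlap, the unadjusted p of both was then the smallest the test can give. Without day 1 replicate 4, the highest library, the same differences were 1.17 and -1.13 CPM, both with an exact permutation adjusted p = 0.381. With no filter on low counts, edgeR gave Ankrd1 a log2 change of 1.69 ± 0.59 at day 1 against untreated libraries (adjusted p = 0.0245) and -1.92 ± 0.58 at day 3 against day 1 (adjusted p = 0.0159). The authors' deposited table lists it at a log2 fold of -1.73 for untreated over day 1 (adjusted p = 0.0277) and 1.88 for day 1 over day 3 (adjusted p = 0.0191), with the group named first on top. The call for Ankrd1 thus depended on the test and on which day 1 library was left out.

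**Figure D3:**
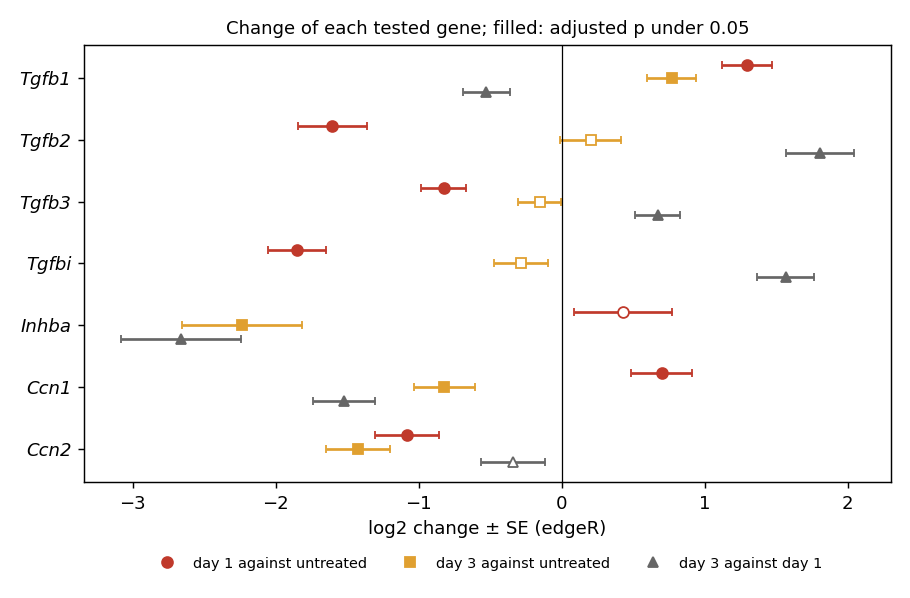
Log2 change of the 7 tested genes (horizontal axis) with its SE in the 3 comparisons between groups, filled where the edgeR adjusted p is under 0.05. Tgfb1 lies right of 0 in both comparisons with untreated libraries, Ccn2 lies left of 0 in both, and Ccn1 changes side.

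Counted over the set, 5 of the 7 tested genes did not overlap between day 1 and untreated libraries, against 27.6% of all genes tested. Between day 3 and untreated libraries 3 of 7 did not overlap, against 15%, and between day 3 and day 1 5 of 7 did not, against 20.6%. Both of these counts include Inhba, which the low-count filter kept only through day 1. For Tgfb2, Tgfb3 and Tgfbi the day 3 level lay above day 1 and had no call against untreated libraries. For Tgfb1 the day 3 level lay between the day 1 and untreated levels. For Inhba and Ccn1 it lay below both, and for Ccn2 both irradiated groups lay below untreated libraries with no call between them.

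Genes whose pattern was most like each member were taken by the Pearson r of log2 CPM over the 15 libraries, with libraries of 3 groups in common and therefore as a description. Tgfb1 was nearest to Tac1 (r = 0.972), which encodes the substance P precursor, to Mdm2 (0.961), the p53 target that degrades p53, and to Snhg15 (0.954), a host gene of small nucleolar RNA. Tgfbi was nearest to Mbtps1 (0.966), the site-1 protease, Cilp (0.963), a cartilage matrix protein, and Wnt2 (0.962). Tgfb2 was nearest to Hvcn1 (0.943), Arl2bp (0.939) and Shisa3 (0.937), and Tgfb3 to Epha4 (0.937), an ephrin receptor, Ntrk2 (0.928), a neurotrophin receptor, and Ablim1 (0.919). Inhba was nearest to Chaf1a (0.915), Mphosph6 (0.861) and Yars (0.860), Ccn1 to Mast2 (0.935), Drap1 (0.925) and Gmppb (0.907), and Ccn2 to Zfp46 (0.923), Copg1 (0.887) and Adcy7 (0.877). None of the 7 genes had another member among its nearest 3.

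The rest of the pathways was followed in 11 lists, with the 8 genes left out. They were written from general knowledge but with earlier results of these data known, so their shares are a description. The lists hold 153 genes, of which 139 were in the table, 127 were tested and 14 stand in more than 1 list. At day 1, 23 of the 127 were higher (18.1%) and 58 lower (45.7%) than in untreated libraries, beside 23.1% and 23.1% of all genes. At day 3, 14 were higher (11%) and 28 lower (22%), beside 9.2% and 9.25%. All counts below are against untreated libraries and use an edgeR adjusted p under 0.05. The median log2 change of all genes was -0.02 at day 1 and -0.01 at day 3.

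Among 4 other ligand genes of the superfamily, 1 was higher and 1 lower at day 1 (median log2 change -0.15), and 1 was higher at day 3 (median -0.05). Gdf15, a stress-induced hormone, rose by 3.69 ± 0.30 at day 1 and 2.47 ± 0.29 at day 3 on the log2 scale, and Lefty1, a nodal antagonist, fell at day 1 (-0.89 ± 0.22). Of 21 genes for latency and activation, 3 were higher and 11 lower at day 1 (median -0.66), and 4 were higher and 7 lower at day 3 (median -0.09). Under total count scaling these splits were 1 and 14 at day 1 and 2 and 7 at day 3. Among the fallen were Pcsk6 (-2.59 ± 0.20) and Pcsk5 (-2.41 ± 0.29), proprotein convertases, and Fbn1 (-1.35 ± 0.16), the fibrillin that anchors latent complexes, with an adjusted p of at most 9.8e-07. At day 3 the proteases Mmp14 (1.24 ± 0.14) and Mmp2 (1.14 ± 0.16) were higher and Pcsk6 (-0.91 ± 0.18) lower. The day 3 split of this list became 4 and 3 without day 3 replicate 1, 2 and 4 without day 3 replicate 3, 3 and 3 without untreated replicate 2, and 2 and 3 without untreated replicate 4.

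Of 8 receptor genes, 2 were higher and 5 lower at day 1 (median log2 change -0.71), and 1 was higher and 2 lower at day 3 (median -0.10). At day 1 Acvrl1, the type I receptor ALK1 (log2 change -1.20 ± 0.15), and Tgfbr3, which encodes betaglycan (-1.12 ± 0.18), fell, while Acvr1b, the activin type I receptor, rose (0.86 ± 0.16). At day 3 Acvrl1 (-0.51 ± 0.14) and Acvr2a (-0.72 ± 0.23) were lower and Acvr1b (0.49 ± 0.15) higher. Total count scaling gave 2 higher and 6 lower at day 1 and 0 and 2 at day 3, and without day 3 replicate 1 or 4 or untreated replicate 4 the day 3 split was 0 and 1. Tgfbr1 and Tgfbr2, named here for their role after their values were seen, had a log2 change of -0.31 ± 0.13 (adjusted p = 0.0645) and -0.87 ± 0.19 (adjusted p = 9.4e-04) at day 1. At day 3 they stood at 0.01 ± 0.13 (adjusted p = 0.977) and -0.26 ± 0.19 (adjusted p = 0.383).

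Of 5 SMAD transducers, 0 were higher and 4 lower at day 1 (median log2 change -1.11). The other, Smad1, was at 0.42 ± 0.25 (adjusted p = 0.167) and was called higher by limma voom. Smad5 had a log2 change of -1.11 ± 0.16, Smad4, the shared partner, -1.45 ± 0.30 and Smad2 -1.54 ± 0.39, with an adjusted p of at most 0.00296. At day 3, 1 of 5 was lower (median -0.37), Smad3 at -0.45 ± 0.15 (adjusted p = 0.0390). That single call was lost with the replicate block and without day 3 replicate 1, 2, 4 or 5 or untreated replicate 4 or 5, and 2 genes were lower under total count scaling. Of 16 inhibitors, 4 were higher and 4 lower at day 1 (median 0.01). The inhibitory Smad7 (1.26 ± 0.18) and Smad6 (0.98 ± 0.19) rose, and Dcn, which encodes the TGF-beta-binding proteoglycan decorin, fell (-1.32 ± 0.19). Total count scaling made this split 3 and 7. At day 3 edgeR called 0 of 16 (median 0.14), with 1 at an unadjusted p under 0.05, against 1 called by DESeq2 and 3 by limma voom.

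TGF-beta response genes went both ways. Of 26, 10 were higher and 9 lower at day 1 (median log2 change -0.03), and 4 were higher and 4 lower at day 3 (median 0.05). Timp1, a metalloproteinase inhibitor, stood at 4.45 ± 0.31 and Il11, a cytokine of fibrosis, at 2.61 ± 0.40 at day 1, with an adjusted p of at most 4.3e-05. The 9 lower genes at day 1, looked up after the counts were seen, included the collagen genes Col5a1, Col3a1 and Col1a2 and the elastin gene Eln. At day 3 Junb (0.69 ± 0.16) and Timp1 (1.16 ± 0.27) were higher and Col5a1 (-0.62 ± 0.15) lower. Total count scaling gave 8 higher and 12 lower at day 1 and 4 and 8 at day 3, and limma voom gave 4 and 9 at day 3.

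On the Hippo side, 1 of 19 kinase and adaptor genes was higher and 12 were lower at day 1 (median log2 change -0.58), and 1 was higher and 6 lower at day 3 (median -0.38). Dchs1, an atypical cadherin, was at -1.42 ± 0.19, Amotl1, an angiomotin that binds YAP, at -1.18 ± 0.19 and Taok1, a kinase above the Hippo kinases, at -1.04 ± 0.19 at day 1, with an adjusted p of at most 1.1e-04. At day 3 Amot (-1.93 ± 0.34), Amotl2 (-0.88 ± 0.17) and Taok1 (-0.70 ± 0.17) were lower. Amot rests on low levels, with means of 2.27 CPM at day 3, 3.03 CPM at day 1 and 8.60 CPM in untreated libraries. The day 3 split became 0 and 3 without day 3 replicate 4 or 5, 0 and 4 without untreated replicate 4 or 5, and 0 and 8 under total count scaling. Of 7 genes for YAP, TAZ, TEAD factors and vestigial-like cofactors of TEAD, 0 were higher and 3 lower at day 1 (median -0.29). Under total count scaling 5 were lower. The 3 lower genes were the cofactor genes Vgll3 (-1.52 ± 0.29) and Vgll4 (-0.64 ± 0.23) and Wwtr1, which encodes TAZ (-0.77 ± 0.21). Tead1, Tead2 and Tead3 had no call at day 1. Yap1, named for its role after its values were seen, was at -0.29 ± 0.17 at day 1 (adjusted p = 0.161) and at 0.04 ± 0.16 at day 3 (adjusted p = 0.892). At day 3 only Tead2 of the 7 was called, at 0.73 ± 0.17.

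Other YAP target genes were lower more often than higher, with 2 of 16 higher and 8 lower at day 1 (median log2 change -0.69) and 2 higher and 5 lower at day 3 (median -0.28). Gadd45a, a stress gene that p53 also switches on, rose at day 1 (1.61 ± 0.17) and at day 3 (0.79 ± 0.17). Igfbp3 (-2.58 ± 0.33) and Rbms3 (-1.50 ± 0.18) fell at day 1, and Amotl2 (-0.88 ± 0.17) and Nuak2 (-1.28 ± 0.26) at day 3. Ccn2 was lower at both times, as 8 of these genes were at day 1 and 5 at day 3, whereas Ccn1 was higher at day 1. Total count scaling made the day 1 split 2 and 12 and the day 3 split 1 and 5. Targets of SRF and MRTF, actin-controlled factors that share targets with YAP, had 5 of 13 higher and 2 lower at day 1 (median 0.40) and 1 higher and 3 lower at day 3 (median -0.02). Tpm2 (1.84 ± 0.21) and Fhl2 (1.47 ± 0.22) rose and Myl9 (-1.80 ± 0.32) fell at day 1, and Cnn2 (-0.92 ± 0.16) and Actb (-0.72 ± 0.16) fell at day 3 while Tpm2 (0.92 ± 0.21) was higher. Total count scaling gave 3 and 2 at day 1 and 1 and 4 at day 3. Of the other 3 CCN genes, Ccn4 rose (1.75 ± 0.29) and Ccn3 fell (-1.96 ± 0.18) at day 1, and Ccn5 (-1.07 ± 0.24) and Ccn3 (-0.71 ± 0.16) fell at day 3. Ccn4 rests on low levels, with means of 12.6 CPM at day 1 and 3.82 CPM in untreated libraries.

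**Figure D4:**
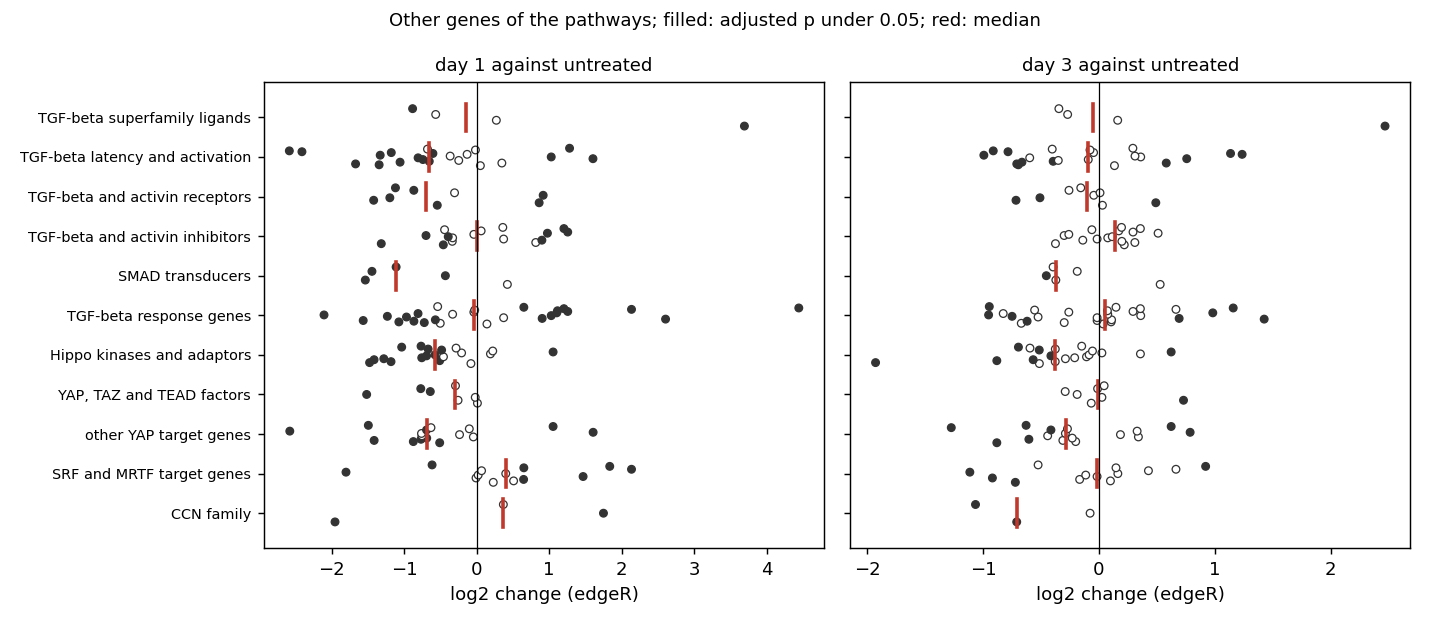
Log2 change of each tested gene of the 11 pathway lists for day 1 against untreated (left) and day 3 against untreated (right), filled where the edgeR adjusted p is under 0.05, with the list's median in red. The SMAD transducers have the lowest median at day 1, at -1.11, and the SRF and MRTF targets the highest, at 0.40.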

How the data were processed

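Fibroblast RNA was counted by MARS-seq in 15 libraries. The mm10 build and the tools STAR 2.5.2b, HTSeq, cutadapt, bcl2fastq and DESeq2 are listed in the submitters' processing notes. The deposited table holds raw UMI counts, which the authors left unscaled and from which the values here were computed. Per the file headers, its other columns hold the authors' normalized signal, log2 values and fold changes, and p-values; apart from the authors' Ankrd1 folds these were not used. Members and gene lists were chosen with earlier results of these data known.

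Genes passing filterByExpr (10207) were scaled with TMM and fitted in 1 edgeR 4.0.16 quasi-likelihood model with robust dispersion over all 15 libraries (R 4.3.3, limma 3.58.1, DESeq2 1.42.0, Python 3.11.15; biological coefficient of variation 0.201). The p-values were adjusted by Benjamini-Hochberg over those genes, with a threshold of 0.05, and an SE is the log2 change divided by the square root of F. CPM used TMM library sizes; summed markers used total counts. Ankrd1, below the filter, and ligand shares had exact permutation tests. Genes named were the 8 members, sort markers, the up to 3 called genes of smallest p per list and comparison with untreated libraries, and the 3 most alike per member (prior count 2). Positions come from GENCODE vM21 and promoters from RefSeq. Alternatives changed the scaling, filter, tool, groups fitted and replicate block, or left out a library. Fits were tested on simulated data.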

Additional observations from a re-analysis of the deposited data

Results flagged for a closer look

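In groups of 5 libraries, a value was singled out where its gap to the nearest other library was more than 0.71 of the group's range, which chance meets in about 1 of 20 groups. Of 33 groups examined for the 8 genes and their shares, 2 met it. Ankrd1 in day 1 replicate 4 stood at 13.4 CPM, against 0 to 3.63 CPM in the other day 1 libraries, and without that library the day 1 difference from untreated libraries was 1.17 CPM in place of 3.33. Ccn2 in untreated replicate 5 stood at 334 CPM, against 155 to 191 CPM in the other untreated libraries.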

How the results depend on the processing

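Over 23 alternatives, 5 to 7 members were called at day 1 and 3 to 4 at day 3 against untreated libraries, and 5 to 7 between day 3 and day 1. Of 482 log2 changes, 479 kept direction and side of the threshold, and the other 3 (Tgfb1 between day 3 and day 1, and Ccn1 at day 1) are given with those genes. The Ankrd1 difference of 0.0412 CPM between day 3 and untreated libraries became -0.0872 with total counts and ran from -0.349 to 0.404 with a library left out. Inhba was below the filter when only day 3 and untreated libraries were fitted. Over all genes, 1883 were called at day 3 against untreated libraries, and 3289 with limma voom. Only 4 of 15 same-numbered pairs of libraries had a correlation of deviations over 0.1 (-0.352 to 0.166), and 1 of 15 libraries was most like its own number in both other groups, so the numbers were not taken as pairs. With the replicate block the member calls stayed at 6, 4 and 6, and the day 3 call of Smad3 was lost. The Tgfb1 share differences under the block, 24.1, 4.86 and -19.3 points, had an exact adjusted p = 0.1125, and 32 sign flips cannot give a p below 0.0625. Depth limits Ankrd1 and Inhba, which have at most 27 UMIs in a library.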
